A study of Homo sapiens with 18 samples.

Results

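Keratins and mucins are products of epithelia, so a neuroblastoma line is not a cell in which most of them would be sought. The genes described here are the 72 protein-coding genes whose symbol is KRT or MUC followed by a number (55 keratins and 17 mucins), of 58735 genes counted in all and 19951 protein-coding ones. Keratin-associated protein genes were left out. Membership follows from the symbol, but the families were taken up with the excess of their reads in Control 1 already known.

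The cells were SH-SY5Y, an established human neuroblastoma line labelled wild type, made neuron-like with 10 µM all-trans retinoic acid for 7 days. All 18 libraries carry that treatment, and the cells then received water or 1 of 5 opioid receptor ligands for 15 min before RNA was taken. The 6 groups of 3 libraries were Control (water), Morphine (193 nM), Metamorphine (169 nM), and TRV130, Beta-endorphin and Naloxone (200 nM each). Morphine, metamorphine, TRV130 (oliceridine) and beta-endorphin activate the µ-opioid receptor, and naloxone blocks it. The labels do not say whether the 3 libraries of a group had separate cultures, so the p-values may reflect technical spread alone. Library names end in 1 of 3 codes, called A (7 libraries), B (6) and C (5) here. What the codes stand for is not stated, and TRV130 has 2 libraries of code A, 1 of B and none of C.

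Keratins are the intermediate filament proteins of epithelial cells. A type I and a type II keratin pair to form the filament, and the pair differs by tissue: KRT8 with KRT18 in simple epithelia, KRT5 with KRT14 in basal keratinocytes, KRT1 with KRT10 in the upper epidermis, and a set of hair keratins in hair and nail. Mucins are large glycoproteins whose repeats carry dense O-linked sugars. Gel-forming mucins such as MUC2, MUC5AC, MUC5B and MUC6 are secreted as mucus, while membrane-bound ones such as MUC1, MUC4 and MUC16 coat the cell surface. Neurons use other intermediate filaments, among them the neurofilaments. Several intermediate filament genes other than keratins were abundant here. Over the 17 libraries other than Control 1, NES averaged 739 CPM (counts scaled to a library total of 1e+06). VIM averaged 141 CPM there, and the neurofilament gene NEFM 139 CPM.

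The 100 bases upstream of the transcription start are printed for 4 members that stand for what follows: a keratin and a mucin counted in every library (KRT10, MUC1), and a keratin and a mucin counted almost only in Control 1 (KRT31, MUC17). Sequences are from RefSeq on GRCh38.p14, and capitals mark TATAAA, the TATA box core, and GGGCGG, the GC box core.
KRT10, chr17:40822615-40822714, minus strand: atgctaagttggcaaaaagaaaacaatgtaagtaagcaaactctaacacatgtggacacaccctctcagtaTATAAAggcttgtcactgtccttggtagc
MUC1, chr1:155192916-155193015, minus strand: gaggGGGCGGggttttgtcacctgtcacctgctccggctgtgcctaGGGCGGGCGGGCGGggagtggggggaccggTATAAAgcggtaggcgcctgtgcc
KRT31, chr17:41397609-41397708, minus strand: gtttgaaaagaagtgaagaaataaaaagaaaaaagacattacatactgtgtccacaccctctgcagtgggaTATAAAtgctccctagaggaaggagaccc
MUC17, chr7:101019981-101020080, plus strand: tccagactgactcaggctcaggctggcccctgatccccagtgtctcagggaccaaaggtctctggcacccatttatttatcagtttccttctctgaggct

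The TATAAA of KRT10 and that of KRT31 both began 29 bases before the start, and that of MUC1 began 24 bases before it. Neither motif was present in the printed MUC17 stretch. Promoter windows of 300 bases (250 before to 50 after the start) were found for 45 of the 72 genes. TATAAA, on either strand, was in 25 of these 45 windows (55.6%), against 3264 of 27305 windows over all genes. GGGCGG, on either strand, was in 24.4% of them, against 44.6% of all windows. A keratin or mucin window held a median of 2 CpG dinucleotides, against 14 over all windows. KRT10 and KRT31 had TATAAA at the same distance, yet KRT10 was counted in all 18 libraries and KRT31 in 1. A match describes the letters and is no proof of a bound site.

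Of the 72 genes, 63 had at least 1 read in some library. The other 9 had none among 477467992 counts, which allows a level of up to 0.00628 CPM by the limit of 3 counts: KRT2, KRT26, KRT27, KRT33A, KRT6A, KRT6B, KRT71, KRT74 and MUC7. By the counts in the 17 libraries other than Control 1, 55 members had a median of 0 reads and are called silent here (46 keratins and 9 mucins, the 9 unread genes included). At the other end, 7 had at least 10 reads in each of the 18 libraries: KRT7, KRT10, KRT80, KRT81, KRT86, MUC1 and MUC20. The remaining 10 lay between: KRT8, KRT18, KRT19, KRT83, MUC4, MUC5B, MUC6, MUC12, MUC15 and MUC19.

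KRT10 was the most abundant of the 72 genes per kb of exon. KRT10 (chr17:40818117-40822595, minus strand, GRCh38 in the GENCODE 29 annotation) is the type I keratin of the upper epidermis. It had 672, 203 and 774 reads in the Control libraries, 343, 418 and 701 with morphine, and 446, 299 and 618 with metamorphine. It had 655, 804 and 335 reads with TRV130, 542, 204 and 546 with beta-endorphin, and 436, 267 and 776 with naloxone. The groups overlapped throughout, and in each of the 5 groups that hold a library of code C that library was the highest. KRT10 averaged 18.4 CPM over the 17 libraries. Per kb of exon its mean was 8.60 CPM, a level that 27.5% of the 19032 protein-coding genes with reads exceeded. Its usual type II partner, KRT1, had reads in Control 1 alone.

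MUC1 and MUC20, both membrane-bound, were the mucins counted in every library. MUC1 (chr1:155185824-155192916, minus strand) had 153, 231 and 25 reads in the Control libraries, and from 32 to 303 reads in the others. Its mean of 1.20 CPM per kb of exon was exceeded by 62.2% of protein-coding genes with reads. MUC20 (chr3:195720882-195741123, plus strand) had 126, 156 and 32 reads in the Control libraries and averaged 0.928 CPM per kb. In both genes the low Control library was that of code C. MUC20 shares 1820 exon bases, 42.8% of its exons, with the noncoding MUC20-OT1 on the same strand, so its count is uncertain.

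The other 4 genes with reads throughout were keratins at low level. KRT80, a keratin of differentiating epithelia, had 65, 82 and 81 reads in the Control libraries and averaged 0.752 CPM per kb over the 17. The hair keratins KRT81 and KRT86 averaged 0.548 and 0.534 CPM per kb. KRT81 was highest in Control 1, with 72 reads against 17 to 59 in the others. KRT7, a type II keratin of simple and glandular epithelia, averaged 0.390 CPM per kb. From KRT80 to KRT7 the ranges over libraries overlapped, so their order is not resolved beyond the spread. KRT86 spans the KRT81 locus with no shared exon base, and KRT7 shares 282 exon bases with its antisense gene KRT7-AS, which unstranded counts cannot separate.

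KRT8 did not belong with these genes. KRT8 (chr12:52897187-52949954, minus strand), the type II keratin of simple epithelia, had 61, 1 and 9 reads in the Control libraries, 3, 2 and 5 with morphine, and 5, 1 and 5 with metamorphine. It had 6, 1 and 8 reads with TRV130, 9, 4 and 5 with beta-endorphin, and 15, 15 and 4 with naloxone. Control 1 thus held 61 of its 159 reads, and Naloxone 1 and Naloxone 2 came next. Its mean over the 17 libraries was 0.0317 CPM per kb, exceeded by 81.7% of protein-coding genes with reads. KRT18, its type I partner, averaged 0.182 CPM per kb, with 28 reads in Control 1 and 4 to 26 in the others.

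Far more reads were assigned to processed copies of KRT8 than to KRT8. The annotation holds 50 KRT8 pseudogenes, and 40 of them had reads, 6288 in all against 159 for the gene. They summed above KRT8 in 18 of 18 libraries. KRT8P12 (chr3:160565447-160569248, plus strand) led with 134 to 260 reads per library, and Control 1 had 247. Scaled to library totals, KRT8P12 was highest in Control 1, at 9.70 CPM against 5.67 to 8.35 CPM in the 17 others. Summed, the KRT8 copies were highest in Control 1, at 480 reads against a median of 374 in the others. The 67 KRT18 pseudogenes had 1618 reads against 296 for KRT18, and were highest in Control 1 too, at 207 reads against a median of 79. KRT8 and KRT18 also share 525 exon bases on opposite strands. How reads that fit a gene and its copies were assigned is not stated, so the counts of KRT8 and KRT18 are uncertain.

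The summed keratin and mucin reads were highest in Control 1. The 72 genes summed to 2004 reads there (78.7 CPM, Wilson 95% interval 75.3 to 82.2), and to 772 to 1523 in the 17 others (33.8 to 58.1 CPM, median 39.4). That is 2.00 times the median. Control 2 came second at 58.1 CPM and TRV130 1 next at 51.8 CPM. Keratins alone had 1181 reads in Control 1 and 398 to 1070 in the others, whereas mucins had 823 in Control 1 and more, 903, in Control 2. Control 1 had reads in 56 of the 72 genes, against 16 to 34 (median 19) in the others. Its total of 25465814 counts lay within the range of the other libraries (21211449 to 33123855). Intervals cover counting error only, and this is a description of 1 library named in the rule, with no test.

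The silent genes held a larger part of the excess than either other class. The 55 silent members summed to 502 reads in Control 1 (19.7 CPM, interval 18.1 to 21.5), spread over 40 genes, with 207 reads in keratins and 295 in mucins. In the 17 others the sum ran from 1 to 52 reads, with a median of 5. Naloxone 1 had 52, Naloxone 2 had 18, Morphine 2 and Metamorphine 2 had 13 each, TRV130 2 had 12, and Control 2 and Beta-endorphin 1 had 10 each. The 10 genes of the middle class summed to 346 reads in Control 1 and 44 to 518 in the others (median 105, highest in Control 2). The 7 genes counted throughout summed to 1156 in Control 1, inside the range of 662 to 1407 in the others (median 941). The 17 libraries defined these genes as silent, so their low values there describe the choice. The value in Control 1 was not used for it.

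**Figure D1:**
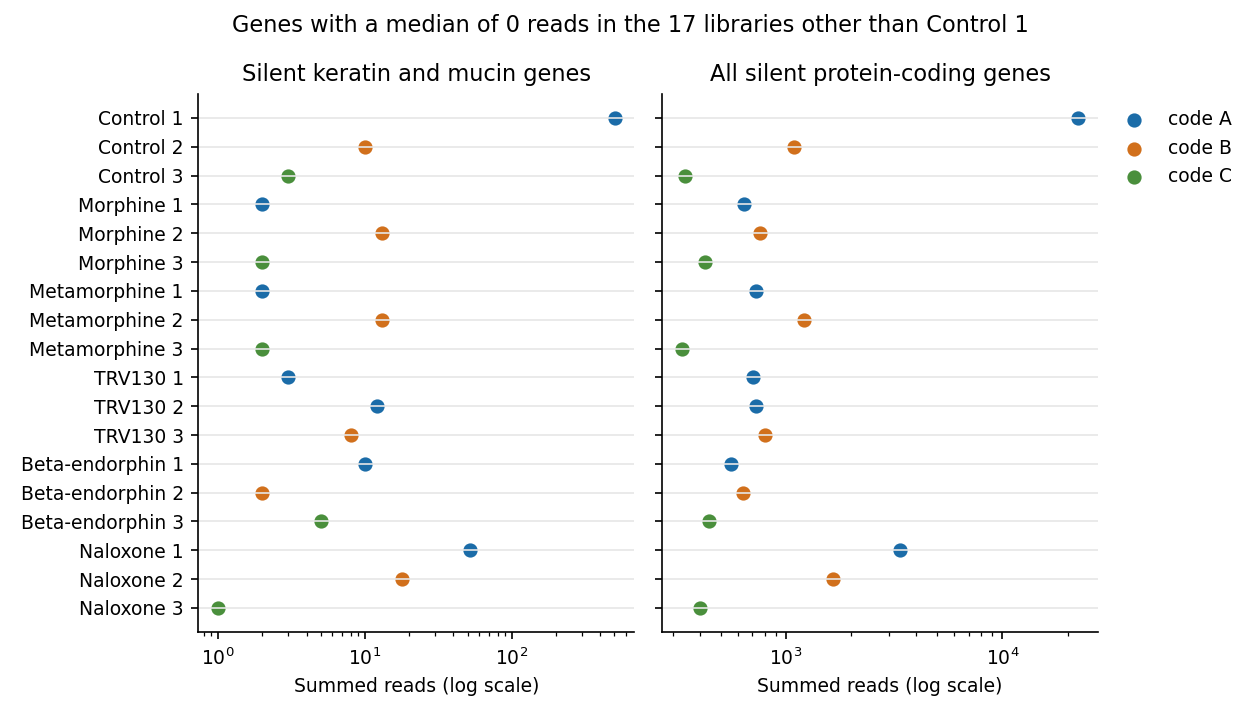
Summed reads per library (log scales) of the 55 silent keratin and mucin genes (left) and of all 3757 silent protein-coding genes (right), coloured by library code. Control 1 stands at 502 and 22439 reads, and Naloxone 1 and Naloxone 2 follow in both panels.

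The same libraries led over all silent genes. The 3757 protein-coding genes with a median of 0 summed to 22439 reads in Control 1, 3355 in Naloxone 1 and 1657 in Naloxone 2, and to 331 to 1210 in the other 15. Per kb of exon, Control 1 held 2.18 reads in the silent members and 1.94 in all silent genes. Against the median library the silent members were 100 times higher and all silent genes 32.0 times. The denominators of both ratios are small, 5 and 702 reads. Of the 17 silent members with a read in Naloxone 1, 14 also had one in Control 1, which is 82.4% of those in Naloxone 1 and 35.0% of those in Control 1. For Naloxone 2 the overlap was 11 of 12, or 91.7% and 27.5%.

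Long mucins and single keratins held most of these reads. MUC17 had 96 reads in Control 1 and 0 to 17 in the others. MUC16, the long mucin that carries the CA125 antigen, had 79 reads against 0 to 3. MUC3A had 74 against 0 to 11, and MUC12, whose median in the others was above 0, had 93 against 0 to 12. In each of these 4 intestinal or surface mucins every other library lay far below Control 1, and in MUC3A, MUC12 and MUC17 the next was Naloxone 1. KRT78, an epidermal type II keratin, had 34 reads in Control 1 and at most 2 elsewhere. KRT31, a hair keratin, had 12, and MUC22 had 11, with none in any other library. In all, 12 members had reads in Control 1 alone.

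MUC3A, MUC12 and MUC17 are neighbours on the plus strand of chromosome 7. They lie at chr7:100949555-100968346, chr7:100969623-101018949 and chr7:101020072-101058745, with gaps of 1276 and 1122 bases. The next gene considered, TRIM56, a ubiquitin ligase gene of the study's title, begins 26693 bases further on. TRIM56 had 103 reads in Control 1, 24 in Naloxone 1 and 0 to 16 in the other 16 libraries. All 4 genes were therefore highest in Control 1, with Naloxone 1 next.

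**Figure D2:**
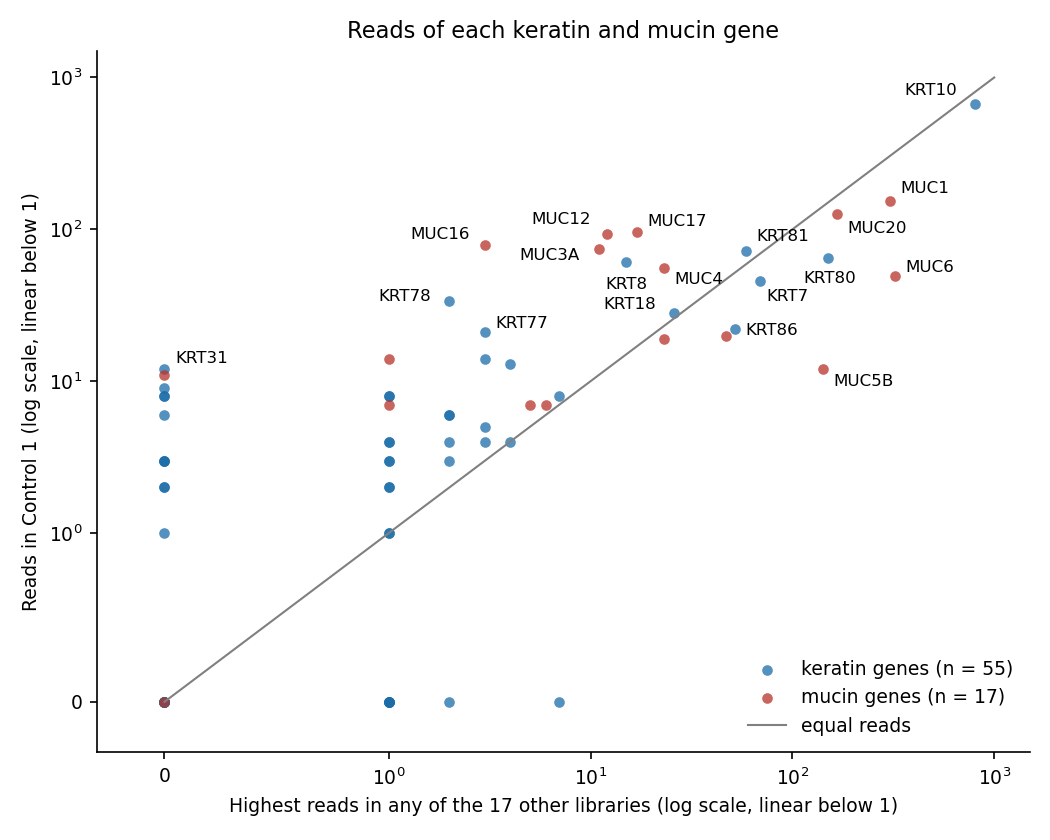
Reads of each gene in Control 1 (vertical) against its highest value in the 17 other libraries (horizontal), both on a log scale that is linear below 1, with the line of equal reads. MUC17, MUC16, MUC12, MUC3A, KRT8 and KRT78 lie far above the line, while KRT10, MUC1, MUC20 and KRT80 lie below it.

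Control 1 was the highest library, in CPM and without ties, for 44 of the 63 members with a read. Over all 46594 genes with a read the share was 25.5%, and Control 2 came next with 6518 genes. Among silent genes, where high shares are common, 38 of 46 members with a read were highest in Control 1, against 67.8% of 2838 genes. Among genes with 1 to 10 reads in the 17 others the count was 22 of 29 members, against 60.7% of genes. Among those with 11 to 100 reads it was 7 of 9, against 54.7%, and with 101 to 1000 reads 3 of 9, against 29.3%. None of the 4 members with 1001 to 10000 reads (KRT10, KRT80, MUC1 and MUC20) was highest there, against 12.1% of genes.

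By class, 8 of the 11 membrane-bound mucins and 12 of the 17 hair keratins were highest in Control 1. So were 10 of the 14 suprabasal, mucosal and corneal keratins. All 4 basal keratins were too (KRT5, KRT14, KRT15 and KRT17), although with 21 reads between them. Of the hair keratins 16 had a read in some library, and of the suprabasal, mucosal and corneal ones 13. The share was 25.5% over all genes with a read and 67.8% over silent protein-coding ones with a read. The gel-forming mucins went otherwise. Only 2 of the 5 were highest in Control 1, and as a class they were highest in Control 2, with 483 reads against 94 in Control 1. The inner root sheath keratins had 6 reads in Control 1 from 3 of their 9 genes.

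Reads in silent genes of Control 1 were set against exon length and base composition. Over the 55 silent members the correlation of reads with exon length was 0.47 by Spearman and 0.70 by Pearson, and with GC content 0.083 by Spearman. Over 3742 silent protein-coding genes it was 0.36 with length and 0.28 with GC content, both by Spearman. These are correlations across genes of 1 library, so genes are not independent replicates and no p-value is given. Reads per kb over all silent genes rose from 0.550 in genes of up to 40% GC to 4.60 at 55 to 60% GC, and were 3.73 above 65%. At the rate of all silent genes of their GC range, the silent members would have held 781 reads, against the 502 found. The 25 silent members at 55 to 60% GC had 2.11 reads per kb, and the 8 at 45 to 50%, MUC17 among them, had 3.61.

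**Figure D3:**
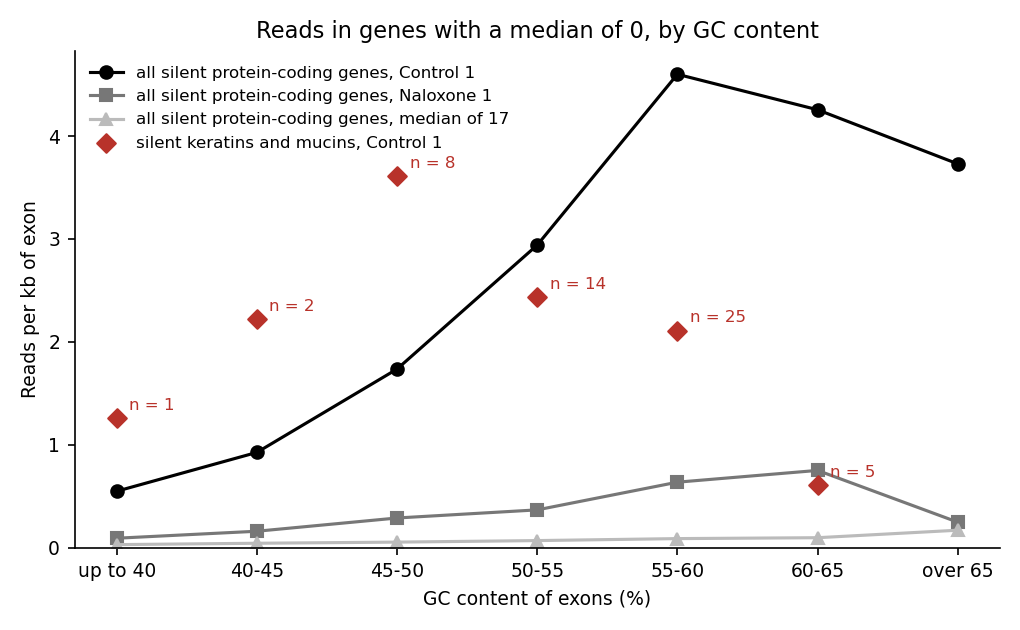
Reads per kb of exon in silent genes by exon GC content: all silent protein-coding genes in Control 1, in Naloxone 1 and at the median of the 17 libraries, and silent keratins and mucins in Control 1 (diamonds, with the number of genes). The Control 1 line climbs from 0.550 to 4.60, and the diamonds run from 0.608 to 3.61 and lie below it from 50% GC upward.

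Markers of other cell types were set beside these genes. The 21 epithelial markers summed to 1186 reads in Control 1 and 443 to 845 in the others. Of these 21, 16 were highest in Control 1, against 25.5% of all genes with a read. For protein-coding genes with 11 to 100 reads in the 17 others that share was 54.7%, and with 101 to 1000 reads 29.3%. Among keratinocyte markers 8 of 17 were highest there, and among goblet or secretory markers 6 of 12, genes without a read included. The cadherin CDH1 (E-cadherin), which defines epithelia, had 65 reads in Control 1 and 0 to 3 in the others. The epithelial markers not highest in Control 1 were CLDN4 (140 reads there, 90 to 238 in the others) and OVOL2 (33, 29 to 132). The same held for GRHL1 (33, 31 to 80), RAB25 (40, 8 to 80) and EHF (2, 0 to 3). The line's own epithelial-list genes, led by the claudin CLDN4 (5.70 ± 1.55 CPM, SD, n = 17), were present throughout. The 17 keratinocyte markers summed to 173 reads against 17 to 88, and 8 of them had a read in Control 1. Most of these reads lay in TGM1 (83 in Control 1, 12 to 70 in the others), TGM3 (35, 0 to 13) and SBSN (22, 0 to 8). LOR and CASP14 had 13 reads each in Control 1 and at most 2 in any other library. TP63 had 3 reads in Control 1. DSG3 and DSC3 had reads in Control 1 alone, 3 and 1. DSG1, FLG and S100A7 had 0 in Control 1 and some reads elsewhere. DSC1, IVL, SPRR1A, SPRR1B, SPRR2A and CALML5 had 0 in every library. The 12 goblet or secretory markers summed to 261 reads against 27 to 99.

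Markers of unrelated tissues stood higher in Control 1 too. Immune markers summed to 386 reads against 143 to 306, muscle markers to 167 against 13 to 56, liver markers to 49 against 4 to 24, and blood markers to 22 against 0 to 8. Those of kidney, thyroid, pancreas and retina summed to 180 against 37 to 78. Testis markers did not, at 8 reads against 0 to 8. Highest in Control 1 were 8 of 12 immune, 5 of 8 muscle, 4 of 7 blood and 3 of 8 liver markers. So were 4 of 8 of kidney, thyroid, pancreas and retina and 0 of 6 of testis. These counts take in any marker without a read, whereas the share of 25.5% over all genes is of those with a read. The 386 olfactory receptor genes, expressed in nasal sensory neurons, summed to 716 reads against 19 to 133. Per kb of silent exon Control 1 held 5.51 reads in epithelial, 1.12 in keratinocyte, 2.31 in goblet, 1.78 in immune and 3.06 in blood genes. The value was 7.52 in the genes of kidney, thyroid, pancreas and retina, the highest of these lists. It was 1.60 in liver, 0.728 in olfactory receptor, 0.657 in testis and 0.458 in muscle genes. The silent keratins and mucins, at 2.18, lay within this spread. The 14 neuroblastoma and neuron markers summed to 178171 reads in Control 1, inside the range of 137023 to 246831 in the others. The part of epithelial or other cells in the excess was not tested. In bulk RNA, fewer cells of a type and less RNA per cell cannot be told apart.

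The keratin-associated proteins, matrix proteins of hair, differed from the keratins in their sum but not in their silent genes. Their 94 genes summed to 421 reads in Control 1, against 344 to 1039 in the others. KRTAP5-2 and KRTAP5-1 led, at 17.2 and 6.07 CPM on average over the 17 libraries. Their 86 silent genes had 109 reads in Control 1 (1.55 per kb), against a median of 2 in the others. Of the 94, genes without a read included, 28 were highest in Control 1, against 25.5% of all genes with a read. The 148 keratin and mucin pseudogenes summed to 834 reads against 269 to 623.

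With all libraries and the low-count filter, no keratin or mucin gene passed the test between treatments. Of the 72, 14 had enough reads to be tested: KRT7, KRT8, KRT10, KRT18, KRT80, KRT81, KRT86, MUC1, MUC4, MUC5B, MUC6, MUC15, MUC19 and MUC20. The test was edgeR's quasi-likelihood test over 23231 genes, with Benjamini-Hochberg adjusted p under 0.05. It called 0 members and 0.0% of all genes in each of the 5 compounds against Control, in their mean against Control, and in any difference among the 6 groups. At an unadjusted p under 0.05, 4, 3, 2, 4 and 1 members were found for morphine, metamorphine, TRV130, beta-endorphin and naloxone, with 944, 1820, 430, 2198 and 1545 genes of all. For the mean of the 5 compounds 4 members and 2654 genes were found, and for any difference 2 members and 565 genes. DESeq2 called 0 members, and 0, 0, 1, 3, 0, 5 and 0 genes in the same 7 comparisons. With the library code fitted beside the group and the same filter, edgeR also called 0 members in each of them.

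Every comparison with Control shares the same 3 water libraries, Control 1 among them. Estimates for the 14 genes lay below Control in 12 with morphine, 12 with metamorphine, 11 with TRV130, 11 with beta-endorphin and 13 with naloxone. Their median log2 fold changes were -0.40, -0.41, -0.21, -0.59 and -0.38. Over all genes tested the medians were between -0.04 and -0.02, with 52.8% to 53.7% of genes below Control.

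The 4 lowest estimates for the mean of the 5 compounds were each nearer 0 without 1 of the Control libraries. KRT8 had a log2 fold change of -2.41 ± 0.66 (standard error, edgeR adjusted p = 0.398), and -0.17 without Control 1. MUC4, a membrane-bound mucin, had 56, 23 and 6 reads in the Control libraries and 3 to 23 in the others. Its value was -2.00 ± 0.47 (edgeR adjusted p = 0.347), and -1.02 without Control 1. MUC6, the gel-forming mucin of the stomach, had 49, 321 and 1 reads in the Control libraries. Its value was -2.36 ± 0.74 (edgeR adjusted p = 0.421), and -0.07 without Control 2. MUC5B, the gel-forming mucin of the airway, had 12, 142 and 2 reads there. Its value was -2.22 ± 0.76 (edgeR adjusted p = 0.433), and 0.65 without Control 2. High Control reads therefore came from Control 1 in KRT8, and from Control 2 in MUC6 and MUC5B, both on chromosome 11. In MUC4, Control 1 (2.20 CPM) and Control 2 (1.02 CPM) each lay above every compound library (0.132 to 0.784 CPM).

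**Figure D4:**
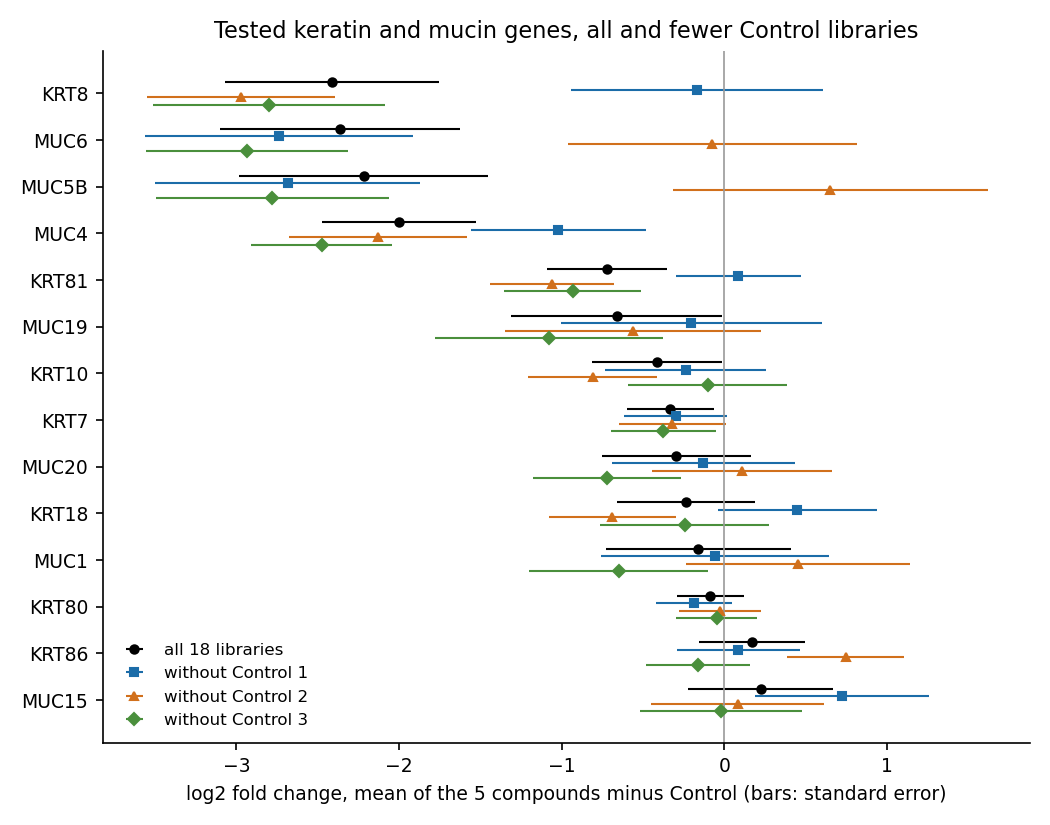
Log2 fold change of the mean of the 5 compounds against Control for the 14 tested genes, with standard errors, from all 18 libraries and without each Control library in turn. KRT8 moves from -2.41 to -0.17 without Control 1, and MUC5B from -2.22 to 0.65 without Control 2.

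Keratins and mucins were called when the low-count filter was dropped. With no filter, the mean of the 5 compounds against Control called 18 of 63 members, against 7.02% of 46594 genes (edgeR adjusted p from 0.0109 to 0.043 for the members). All 18 were lower with the compounds, all 18 had their highest level in Control 1, and 16 were silent genes. The 12 keratins were KRT1, KRT3, KRT4, KRT6C, KRT8, KRT9, KRT14, KRT31, KRT33B, KRT35, KRT77 and KRT78. The 6 mucins were MUC4, MUC5AC, MUC13, MUC16, MUC21 and MUC22. At the median, Control 1 held 88.2% of a gene's reads. The same fit without Control 1 called 0 members and 1 of 43918 genes. With the filter but without Control 3, 5 members were called (MUC3A, MUC4, MUC6, MUC12 and MUC17), against 1.52% of 24143 genes. MUC3A, MUC12 and MUC17 passed that filter only through Control 1 and Naloxone 1.

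Fits that joined the library code to these settings, chosen after seeing the data, called members as well. With the code and no filter, 6 members passed for morphine, 6 for metamorphine, 4 for TRV130, 6 for beta-endorphin and 2 for naloxone, against 2.09%, 5.07%, 0.367%, 7.12% and 4.66% of all genes. The mean of the 5 compounds had 11 (10.5% of genes) and any difference among the groups 10 (6.18%). Those called against Control were all lower with the compounds, among them MUC16 and MUC17, whose reads lie mostly in Control 1, and MUC5B and MUC6, which are highest in Control 2. With the code and the filter but without Control 3, the mean of the 5 compounds called 7 of 17 members (KRT8, MUC3A, MUC4, MUC5B, MUC6, MUC12 and MUC17), against 16.9% of genes. Metamorphine called MUC4 and MUC6 (4.84% of genes) and beta-endorphin MUC5B and MUC6 (11.5%). Without Control 2, with the code, the mean called MUC3A alone (0.105% of genes). In those of these fits that kept the filter, MUC3A, MUC12 and MUC17 again entered the test only through Control 1 and Naloxone 1.

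The library code, unlike the treatment, separated several of these genes. With the code fitted beside the group, 7 of the 14 tested members differed among codes, against 57.8% of all genes tested. They were MUC1 (edgeR adjusted p = 3.17e-05), MUC20 (5.05e-05), KRT10 (6.85e-05), MUC5B (0.0013), MUC6 (0.00319), MUC19 (0.00593) and KRT81 (0.0269). A share of 7 in 14 is near that background.

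Of the 7 mucins tested, 5 were lower in code C than in A. MUC1 ran from 5.29 to 10.3 CPM in code A (median 6.52), from 5.43 to 10.3 in code B (7.76), and from 1.04 to 2.47 in code C (1.32). Its log2 fold change of code C against code A was -2.03 ± 0.25 (edgeR adjusted p = 0.000117). MUC20 had medians of 4.61, 5.40 and 1.33 CPM, with a change of -1.48 ± 0.21 (edgeR adjusted p = 0.000272). MUC6 had medians of 1.33, 1.98 and 0.189 CPM, with a change of -2.39 ± 0.73 (edgeR adjusted p = 0.0204). In these 3 genes every library of code C lay below every library of A and B. MUC5B (-2.02 ± 0.72, edgeR adjusted p = 0.0401) and MUC19 (-2.18 ± 0.52, edgeR adjusted p = 0.00552) were lower too, but their libraries overlapped between codes. MUC4 (-0.93 ± 0.55, edgeR adjusted p = 0.202) and MUC15 (-0.67 ± 0.39, edgeR adjusted p = 0.2) did not pass. In code C against A, 6 members passed, against 33.2% of genes.

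KRT10 went the other way. It ran from 22.1 to 32.1 CPM in code C (median 27.0), from 13.3 to 26.4 in code A (19.5) and from 9.04 to 13.6 in code B (11.3). It was higher in code C than in A by 0.59 ± 0.18 (log2, edgeR adjusted p = 0.0221) and lower in B than in A by -0.84 ± 0.17 (edgeR adjusted p = 0.00418). KRT81 (-0.85 ± 0.27, edgeR adjusted p = 0.0303) and KRT18 (-0.93 ± 0.31, edgeR adjusted p = 0.038) were also lower in B than in A, although KRT18 missed the test of any difference (edgeR adjusted p = 0.0504). In code B against A, 3 members passed, against 26.9% of genes. Leaving out any single library kept the calls of MUC1, MUC20 and MUC19 in code C against A and of KRT10 in B against A. The call was lost in 5 of 18 such fits for KRT10 in C against A, 4 for MUC6, 9 for MUC5B, 7 for KRT81 in B against A and 10 for KRT18.

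**Figure D5:**
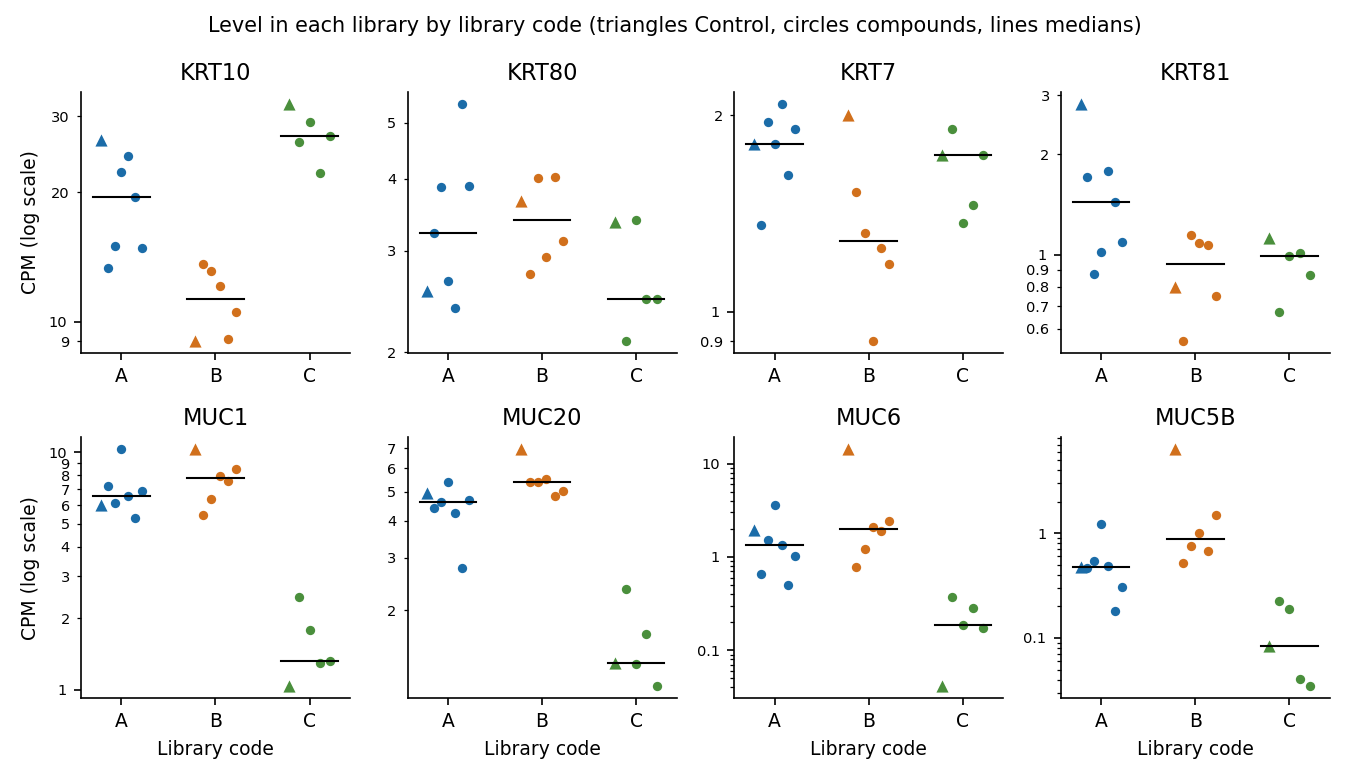
CPM (log scale, a separate axis for each gene) in every library by library code for 8 genes, with the median as a line, Control libraries as triangles and compound libraries as circles. MUC1, MUC20 and MUC6 lie lower in all 5 libraries of code C, and KRT10 is highest in C and lowest in B.

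Base composition and the mitochondrial share moved with the code. The median log2 fold change of code C against A ran from 0.30 in genes of up to 40% GC to -0.24 in genes above 60%. MUC1, the member of highest GC among those tested, was lower by far more than that median. The mitochondrially encoded share of counts was 4.66% to 9.47% in code C, 6.15% to 17.7% in code A and 8.02% to 15.7% in code B. In code A, MUC1, MUC20, MUC5B and MUC6 were each highest in TRV130 1, the library with the highest mitochondrial share (17.7%), and lowest in Beta-endorphin 1, that with the lowest (6.15%). In code B all 4 were highest in Control 2 (15.7%, the highest of its code), and in code C in Morphine 3 (9.47%, likewise). The low end did not follow the share in code B, where Metamorphine 2 had the lowest (8.02%). There MUC1, MUC5B and MUC6 were lowest in Morphine 2 (10.4%) and MUC20 in Beta-endorphin 2 (10.5%). In code C, MUC20 and MUC5B were lowest in Naloxone 3 (4.66%, the lowest share), and MUC1 and MUC6 in Control 3 (5.81%). MUC19, also lower in code C, did not follow the share. In code A it was highest in Naloxone 1 (10.1%) and lowest in TRV130 2 (15.6%). It was highest in TRV130 3 (10.0%) in code B and in Control 3 in code C. The part of GC content and of the mitochondrial share in these differences was not tested.

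Genes that work with keratins and mucins were in part present in the line. Keratin filaments anchor at desmosomes through plakins. Of 17 desmosome and plakin genes, 12 averaged under 1 CPM over the 17 libraries and 7 had a median of 0. Of these 17 genes 7 were tested, and 0 were called by treatment and 5 by library code, against 57.8% of all genes by code. The plakins PLEC and DST averaged 230 and 214 CPM, JUP (plakoglobin) 114 CPM and PKP2 (plakophilin) 4.75 CPM. Of 27 genes of mucin-type O-glycosylation, 12 averaged under 1 CPM. Of these 27 genes 19 were tested, and 0 were called by treatment and 10 by code, also against 57.8%. The initiating transferases GALNT2 and GALNT6 averaged 284 and 100 CPM over the 17 libraries. Of 16 other intermediate filament genes, 14 were tested, and 0 were called by treatment and 8 by code, again against 57.8%. Of these 16 genes 3 averaged under 1 CPM.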

How the data were processed

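Per the labels' protocols, total RNA of SH-SY5Y cells was extracted with TRIzol, treated with DNase I and made into libraries without strand information, sequenced as paired 150 bp reads. The authors deposited a table of raw counts per Ensembl gene, with 1 column for each of 18 libraries and 0 columns left unused. The submitters' processing notes name HISAT2, featureCounts, FastQC and DESeq2, and GRCh38 (hg38) as the build. For versions, counting settings and annotation, the entry is: not given in the sources used here. GENCODE 29 holds the same 58735 gene IDs and gave symbols, positions, exon lengths and GC content. The column of Control 1 lacks a 0 that its label's code has, and its name matched no other sample. Counts without strand cannot separate a gene from an antisense partner, and the handling of reads shared by near-identical copies is unknown.

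Totals ran from 21211449 to 33123855 counts, so 3 counts amounted to 0.0906 to 0.141 CPM in the 17 libraries other than Control 1. CPM were counts over a library's total, times 1e+06. Counts were tested with edgeR 4.0.16 in R 4.3.3 (filterByExpr with a minimum count of 10, TMM, robust quasi-likelihood test, two-sided, Benjamini-Hochberg over 23231 genes, threshold 0.05) on all 18 libraries with group means. The library code was fitted beside the group for comparisons of codes. The test was tried on simulated data first. The alternatives were RLE size factors, DESeq2 1.42.0, no low-count filter, the 2 groups compared alone, a replicate or code block, each library left out, other scalings of the Control 1 ratio, and 5 or 20 counts as the minimum in every library. The fits without Control 1, Naloxone 1 and Naloxone 2, without filter and Control 1, and with the code as a block joined to another alternative, were chosen after seeing the data.

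The 72 genes, the marker and pathway lists and the comparisons were chosen with earlier results of these data known. Named with values were members with at least 10 counts in every library, the 12 with the most counts in Control 1, any member that passed a test, members with no count, and up to 4 leading genes of a list. KRT1, KRT14, KRT18, KRT31, KRT78, MUC5B, MUC19, MUC22, CDH1, TP63, IVL and the other keratinocyte markers given with their reads, TRIM56 and the KRT8 and KRT18 copies were named outside that rule, after their values were seen, or because a call or a pair concerns them. GRHL1, RAB25 and EHF were named because they were not highest in Control 1. Whether same-numbered or same-code libraries belong together was checked by the correlation of their deviations from group means.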

Additional observations from a re-analysis of the deposited data

Results flagged for a closer look

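Within a library code, some libraries stood apart from the others by a gap that is large against the range of that code's libraries. Such a gap is found by chance in about 1 of 20 groups. Several genes and sums were examined in each code, so some of these gaps may be chance. The rate does not apply to Control 1, since its excess was known when the families were taken up. The silent genes were also chosen for low counts in the libraries other than Control 1, so the gap in their sum partly describes that choice. In code A, Control 1 stood above the other 6 libraries for KRT8 (2.4 CPM), MUC4 (2.2 CPM), the summed 72 genes (78.7 CPM) and the summed silent genes among them (19.7 CPM). TRV130 1 stood above the rest of code A for MUC1 (10.3 CPM) and MUC5B (1.23 CPM). In code B, Control 2 stood above the other 5 libraries for MUC20 (6.95 CPM), MUC5B (6.32 CPM), MUC6 (14.3 CPM) and the summed 72 genes (58.1 CPM).

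In 5 genes the compound libraries lay on opposite sides of their own code's Control library in different codes. The difference was not tested, and each value rests on 1 Control library per code. KRT10 had a median difference of -9.13 CPM in code A, 3.05 CPM in code B and -5.48 CPM in code C. KRT18 had -0.344 CPM in code A and 0.277 CPM in code B. KRT86 had 0.633 CPM in code A, -0.727 CPM in code B and 0.643 CPM in code C. MUC1 had -2.74 CPM in code B and 0.521 CPM in code C, and MUC6 had -12.4 CPM in code B and 0.195 CPM in code C.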

How the results depend on the processing

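Of the recomputed counts and Control 1 ratios, 365 kept their reading and 21 did not. With no low-count filter, the mean of the 5 compounds against Control called 18 members in place of 0, and the codes 12 in place of 7. With the code as a block and no filter, 6, 6, 4, 6 and 2 members were called for morphine, metamorphine, TRV130, beta-endorphin and naloxone, 11 for their mean and 10 for any difference. Leaving out 1 library, with or without the code, gave 0 to 7 members for the mean of the 5 compounds, 0 to 2 for metamorphine, 0 to 2 for beta-endorphin, 7 to 10 for the codes, and 7 to 7 members with at least 10 counts in every library. Without Control 3 the mean called 5 members without the code and 7 with it. Both counts hold MUC3A, MUC12 and MUC17, which passed the filter only through Control 1 and Naloxone 1. Without Control 1, Naloxone 1 and Naloxone 2, chosen after seeing the data, 0 members were called between treatments. The ratio of Control 1 to the median, 2.00, was 1.90 from unscaled reads, 2.10 when scaled to counts outside mitochondrial genes, 2.39 on TMM-scaled CPM, 8.05 without the 7 genes counted in every library, 1.81 for keratins and 2.25 for mucins. Among members with at least 10 counts in all, 22 were highest in Control 1, not 44, since fewer genes enter.

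Single genes changed sign in some settings, and no value of the changed sign passed the test. With the replicate number as a block, 0 members were called in each comparison with Control, and the log2 fold change was 0.049 for MUC1 in the mean of 5 compounds, and 0.10 for MUC5B and 0.041 for MUC6 with TRV130. Same-numbered libraries correlated from -0.56 to 0.759 (median 0.335, against -0.139 for different numbers), so not every pair meets the bar for pairing. Libraries of the same code correlated from -0.349 to 0.759 (median 0.429, against -0.187), so the codes miss that bar too and are used as labels in the library names. Without Control 1, Naloxone 1 and Naloxone 2, KRT18 was 0.43 and KRT81 0.11 in the mean of 5 compounds, and KRT18 0.028 in code C against A. With no filter and no Control 1, KRT18 was 0.48 and KRT81 0.12 in the mean, and KRT8 0.073 with beta-endorphin and 0.84 with naloxone. Leaving out 1 library gave, for the mean of 5 compounds, -0.69 to 0.45 for KRT18, -1.06 to 0.085 for KRT81, -0.17 to 0.74 for KRT86, -0.65 to 0.45 for MUC1, -0.022 to 0.72 for MUC15, -0.72 to 0.11 for MUC20 and -2.78 to 0.65 for MUC5B. It gave -0.062 to 0.21 for MUC1 in code B against A. KRT8 ran from -2.75 to 0.039 with beta-endorphin and -1.97 to 0.84 with naloxone. MUC5B ran from -3.07 to 0.36 with morphine, -2.84 to 0.59 with metamorphine, -1.81 to 1.62 with TRV130 and -3.71 to 0.86 with naloxone. MUC6 ran from -1.70 to 1.17 with TRV130 and -3.19 to 0.030 with naloxone. The cause was not tested. Depth limits the silent genes: a count of 0 allows up to 0.0906 to 0.141 CPM in a library other than Control 1.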
